A study of Mus musculus with 8 samples.

Results

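Transcripts that mark the cerebellum were measured in RNA labelled as forebrain from aged mice, and 10 cerebellar genes were followed across all libraries. The genes are Gabra6, Cbln1, Cbln3, Pcp2, Zic1, Zic2, En2, Neurod1, Car8 and Slc1a6, found by symbol among the 56748 Ensembl genes of the deposited count table. All 10 had a row and all 10 were abundant enough to be tested, with 624 to 21075 counts per library. The samples are 4 libraries of TgCRND8 transgenic mice (Tg), which overexpress the amyloid precursor protein, and 4 of non-transgenic littermates (NTg), all aged 18 months. The labels describe freezing and pulverising 1 hemibrain for RNA, and elsewhere call the extracted tissue forebrain. They give every library the same batch value, F, and number the replicates 1 to 4 in each genotype without saying outright that each is a separate animal, so p-values measure the spread between these libraries. As background, the transgene of this line is driven by a prion protein promoter.

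The cerebellar cortex is built around granule cells, small and very numerous excitatory neurons, and Purkinje cells, the large inhibitory neurons whose axons are the only output of the cortex. Granule cell axons contact Purkinje cell dendrites, and secreted cerebellins released by the granule cells help to organise that synapse. Several members are not restricted to the cerebellum: Zic1 and Zic2 are also known from septum, thalamus, olfactory bulb and meninges, Neurod1 from the dentate gyrus, and En2 from the midbrain. These are examples, and expression of the other members outside the cerebellum was not assessed. In bulk RNA, fewer cells of a type and less RNA per cell cannot be told apart.

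A pair of libraries, NTg replicate 4 and Tg replicate 1, stood apart from the rest in some transcripts other than the members. Tph2 and Slc6a4, which make and take up serotonin in neurons of the brainstem raphe, were at 29.4 to 35.0 CPM and at 17.7 CPM in these 2 libraries, and at 2.00 to 4.95 CPM and 0.84 to 2.52 CPM in the other 6. Summed red blood cell genes reached 3271 and 3003 CPM in them, against 1282 to 1876 CPM for the remaining NTg and 448 to 732 CPM for the remaining Tg libraries. Other midbrain and hindbrain genes differed. En1 was also highest in the pair, at 2.96 CPM in NTg replicate 4 and 2.54 CPM in Tg replicate 1. Slc6a3, the dopamine transporter, was at 3.21 and 18.5 CPM there and highest in NTg replicate 3 (32.0 CPM). Hoxa5 was highest in NTg replicate 2 (6.82 CPM). The genes named here were chosen after their values were seen, and their part in the results was not tested. NTg replicate 4 was also among the 2 highest libraries for 10 of 10 members, and Tg replicate 1 for 8. The pair was left out as an alternative in the edgeR fit of the members and gene lists and in the Pearson test of the pairs. That choice was made with the members' levels known.

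Of the 10 members, 6 had a promoter in the RefSeq table (build GRCm38.p6, an older build than that of the counts). The 250 bases before the start site are shown for 2 granule cell genes and 2 Purkinje cell genes, because these 4 stood for the 2 cell types and varied together across libraries. Of the 4 starts listed for Pcp2 the most upstream was used. Each sequence runs 5′ to 3′ on the gene's strand, and capitals mark 2 kinds of short motif, searched on both strands. They are the E-boxes CAGCTG and CAGATG, bound by basic helix-loop-helix factors such as Neurod1, and the nuclear factor I half-site TTGGC. In these windows no match overlapped another.
Gabra6, chr11:42321073-42321322, minus strand: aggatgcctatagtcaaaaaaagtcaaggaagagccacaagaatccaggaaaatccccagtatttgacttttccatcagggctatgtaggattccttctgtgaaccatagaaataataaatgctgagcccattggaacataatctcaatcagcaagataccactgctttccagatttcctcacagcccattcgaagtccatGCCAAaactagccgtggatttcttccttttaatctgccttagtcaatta
Cbln3, chr14:55884257-55884506, minus strand: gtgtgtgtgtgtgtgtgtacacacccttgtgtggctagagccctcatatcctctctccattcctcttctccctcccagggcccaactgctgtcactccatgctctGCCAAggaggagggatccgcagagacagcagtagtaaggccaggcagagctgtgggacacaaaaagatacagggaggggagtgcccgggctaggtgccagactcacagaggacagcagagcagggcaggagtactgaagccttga
Pcp2, chr8:3625548-3625797, minus strand: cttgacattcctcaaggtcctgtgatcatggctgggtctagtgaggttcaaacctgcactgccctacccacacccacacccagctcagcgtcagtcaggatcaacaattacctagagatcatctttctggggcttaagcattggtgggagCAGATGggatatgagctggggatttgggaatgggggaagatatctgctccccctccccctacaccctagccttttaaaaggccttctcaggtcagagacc
Slc1a6, chr10:78780246-78780495, plus strand: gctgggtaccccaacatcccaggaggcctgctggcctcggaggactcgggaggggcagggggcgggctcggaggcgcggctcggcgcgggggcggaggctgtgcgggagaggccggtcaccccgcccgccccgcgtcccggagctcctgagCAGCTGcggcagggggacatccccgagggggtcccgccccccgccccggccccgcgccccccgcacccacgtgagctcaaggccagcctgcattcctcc
The Gabra6 and Cbln3 windows each held 1 TTGGC half-site, written here as its reverse complement, starting at base -49 and base -145 from the start site, and neither E-box. The Pcp2 window held 1 CAGATG at base -100 and the Slc1a6 window 1 CAGCTG at base -99. Over the 6 members with a promoter, 2 held either E-box and 3 held the half-site. Among all 32851 promoter windows of that length, 25.5% held either E-box and 41.5% the half-site, so the members' shares do not stand out. A match describes letters only and is no evidence of binding.

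Granule cell genes were plentiful in every library and moved up and down together. Gabra6, the alpha-6 subunit of the GABA-A receptor of granule cells, stood at 85.3, 63.9, 86.0 and 180 CPM (counts scaled to a common library total, with TMM factors) in NTg replicates 1 to 4. In Tg replicates 1 to 4 it stood at 178, 130, 128 and 130 CPM. NTg replicate 4 was thus the highest of all libraries and NTg replicates 1 to 3 the 3 lowest, so that the genotypes overlapped. NTg averaged 104 ± 51.9 CPM and Tg averaged 141 ± 24.5 CPM (SD, n = 4), a fitted log2 fold change of 0.45 with SE 0.28 that did not pass (adjusted p = 0.836 by the quasi-likelihood test of edgeR).

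Cbln3, a cerebellin of granule cells, was at 159, 111, 160 and 303 CPM in NTg and 286, 234, 180 and 280 CPM in Tg, in replicate order. Its 3 lowest libraries were again NTg replicates 2, 1 and 3, and its highest was NTg replicate 4 (edgeR: log2 fold change 0.42 with SE 0.27, adjusted p = 0.843). Cbln1, the secreted cerebellin that organises the synapse onto Purkinje cells, was at 92.2, 84.7, 108 and 158 CPM in NTg and at 144, 125, 115 and 135 CPM in Tg. It kept the library order of Cbln3 exactly, over a narrower range (edgeR: log2 fold change 0.23 with SE 0.17, adjusted p = 0.877).

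The transcription factors of this group followed the same libraries. Neurod1, a basic helix-loop-helix factor of granule neurons, was at 43.9, 32.9, 43.1 and 76.3 CPM in NTg and at 67.7, 62.2, 54.6 and 63.5 CPM in Tg (edgeR: log2 fold change 0.34 with SE 0.22, adjusted p = 0.837). En2, a homeobox factor of the midbrain and hindbrain territory, was at 15.8, 14.9, 17.8 and 32.3 CPM in NTg and at 29.1, 23.3, 19.7 and 27.3 CPM in Tg (edgeR: log2 fold change 0.30 with SE 0.24, adjusted p = 0.885). For both genes every Tg library lay above NTg replicates 1 to 3 and below NTg replicate 4.

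The zinc finger factors Zic1 and Zic2 varied least. Zic1 was at 134, 105, 135 and 186 CPM in NTg and at 172, 174, 146 and 130 CPM in Tg, and Tg replicate 4 lay below NTg replicates 1 and 3 (edgeR: log2 fold change 0.16 with SE 0.16, adjusted p = 0.923). Zic2 was at 36.9, 32.7, 37.0 and 53.5 CPM in NTg and at 50.5, 51.1, 37.9 and 40.4 CPM in Tg (edgeR: log2 fold change 0.17 with SE 0.16, adjusted p = 0.912). The highest library exceeded the lowest 1.64-fold for Zic2 and 1.77-fold for Zic1, against 2.82-fold for Gabra6 and 2.72-fold for Cbln3.

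Purkinje cell genes were present as well. Pcp2, a Purkinje cell protein that modulates G-protein signalling, was at 11.1, 9.92, 11.9 and 25.7 CPM in NTg and at 17.8, 15.3, 15.1 and 17.7 CPM in Tg (edgeR: log2 fold change 0.17 with SE 0.27, adjusted p = 0.961). NTg replicate 4 stood 2.35-fold above the mean of the other 3 NTg libraries, and the 4 Tg libraries lay between them. Car8, a carbonic anhydrase-related protein that binds the IP3 receptor, was at 154, 153, 192 and 372 CPM in NTg and at 299, 225, 266 and 292 CPM in Tg (edgeR: log2 fold change 0.31 with SE 0.26, adjusted p = 0.903). Slc1a6, the glutamate transporter EAAT4 of Purkinje cells, was at 24.0, 20.7, 25.2 and 38.4 CPM in NTg and at 35.0, 28.9, 22.6 and 30.6 CPM in Tg. Its Tg replicate 3 lay among the low NTg libraries (edgeR: log2 fold change 0.11 with SE 0.19, adjusted p = 0.965).

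**Figure D1:**
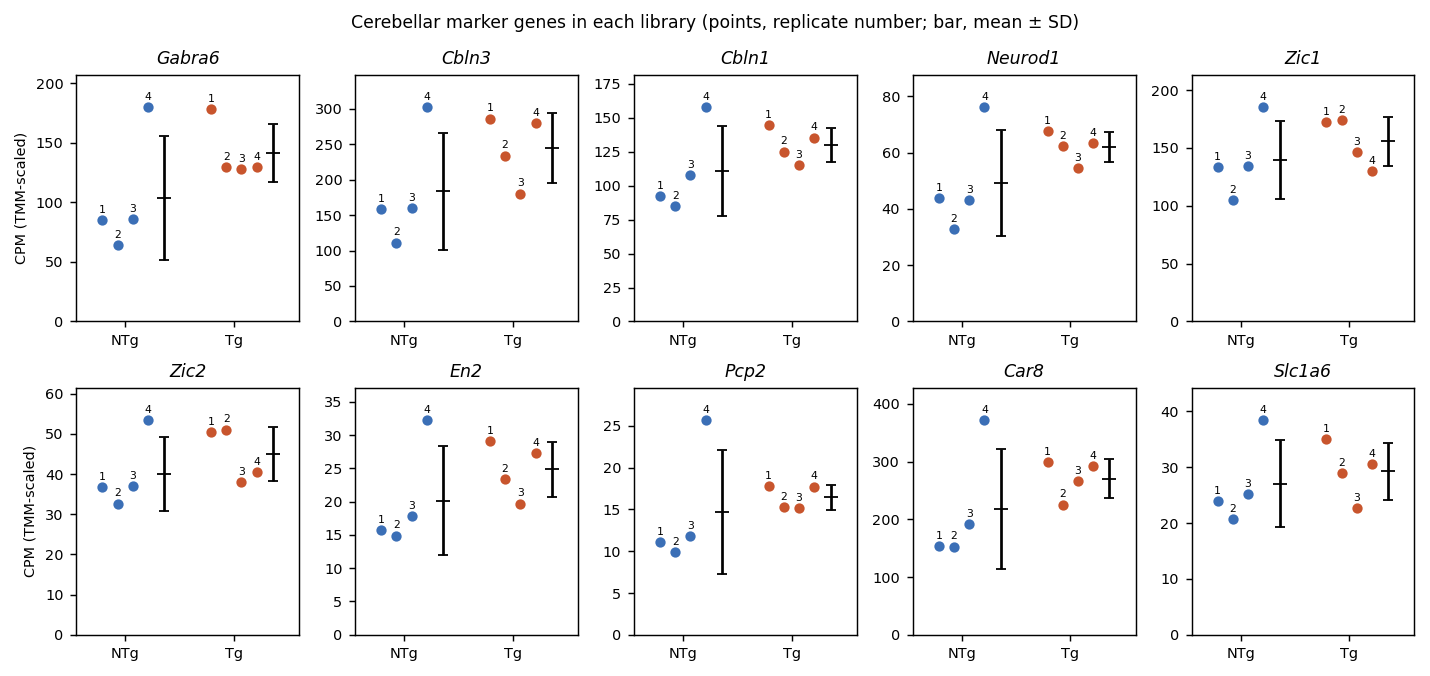
Level of each of the 10 cerebellar genes (vertical axis, TMM-scaled CPM from 0) in the 4 NTg (blue) and 4 Tg (orange) libraries, with replicate numbers and, beside them, the mean ± SD. NTg replicate 4 is the highest point and NTg replicate 2 the lowest in all 10 panels, and no Tg library lies above NTg replicate 4.

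The library order was thus nearly the same for every member. NTg replicate 2 was lowest for 10 of 10 members and NTg replicate 4 highest for 10 of 10, while Tg replicate 1 was among the 2 highest libraries for 8. Summed over the 10 members the level was 755, 629, 815 and 1425 CPM in NTg replicates 1 to 4 and 1279, 1069, 985 and 1147 CPM in Tg replicates 1 to 4. Raw library totals were 57129090 to 65242741 counts with TMM factors of 0.98 to 1.02, a far narrower range than that of the members.

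Levels can be set against each other only per length of transcript, here the summed exon length in GENCODE release M21. On that scale Car8 came first, at a median of 63.8 CPM per kb over the 8 libraries, followed by Gabra6 at 51.7, Cbln3 at 42.5 and Cbln1 at 39.5. Zic1 followed at 24.7, Neurod1 at 21.4, Zic2 at 13.6, Slc1a6 at 12.6, Pcp2 at 8.31 and En2 at 6.08 CPM per kb. Neighbours in this order overlapped in their ranges: Car8 spanned 39.7 to 96.5, Gabra6 25.7 to 72.4 and Cbln3 22.8 to 62.2 CPM per kb. Exons of 3 members overlap exons of other genes, and the library kit does not mark strand, so their counts are less certain. Pcp2 shares 941 of 1828 exon bases with Pet100 on the opposite strand, Neurod1 355 bases with Cerkl and Gm26755, and Zic1 60 bases with Zic4. Pet100 itself was at 8.60 to 10.7 CPM, a narrower range than that of Pcp2.

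Whether the members vary together was tested on all 45 pairs with the log2 CPM of the 8 libraries. Every pair had a positive Pearson r, from 0.73 for Zic1 with Car8 to 0.99 for Cbln1 with En2, with a median of 0.92. All 45 passed an exact two-sided permutation test after Benjamini-Hochberg adjustment over the pairs (largest adjusted p = 0.0434, n = 8). The pairs share genes and libraries, so they are not 45 separate observations. The share of all gene pairs that would pass this test was not measured. Over all other tested genes the median r with Gabra6 was 0.01. Cbln1 with En2 gave r = 0.99 with an exact permutation p = 2.48e-05, the smallest that 8 libraries can give (adjusted 0.000372), and Spearman rho = 1. By Spearman rho, which ran from 0.64 to 1, 38 of the 45 pairs passed, and all 7 that did not involved Zic1.

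Granule cell and Purkinje cell genes varied with each other about as closely as within each group. Pairs within the granule cell group of 7 genes had a median r of 0.94, pairs between the groups 0.92 and the 3 Purkinje pairs 0.89. Gabra6 and Pcp2, each from another cell type, had r = 0.93 (exact permutation p = 0.00067, adjusted 0.00188, n = 8) and Spearman rho = 0.98 (exact permutation p = 0.000397, adjusted 0.00094). Without NTg replicates 1 and 2, the 2 libraries farthest from the Gabra6 median, that r was 0.87 (exact permutation p = 0.0375, n = 6).

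The Zic genes, and Zic1 more than Zic2, were the loosest part of the group. The median r with the other members was 0.80 for Zic1 and 0.87 for Zic2, beside 0.89 for Slc1a6. The 17 pairs with Zic1 or Zic2 had a median r of 0.87, and the 28 pairs of the 8 other genes a median of 0.94. After the 2 libraries farthest from the median of the first gene of a pair were left out, r ran from 0.37 to 0.98 and stayed positive in all pairs. In that setting 31 pairs had an unadjusted exact permutation p under 0.05. The 14 other pairs did not pass with 6 libraries, at r of 0.37 to 0.81. Of these, 11 involved a Zic gene, 8 of them Zic1, and the pairs without a Zic gene were Cbln3 with Car8, Pcp2 with Slc1a6 and Car8 with Slc1a6. Because the first gene sets which libraries are left out, these counts depend on the order of the genes.

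The relation was also measured with the genotype difference removed. After each gene was centred on its genotype means, r ran from 0.68 to 0.98 with a median of 0.92, and 31 of 45 pairs passed an exact permutation test within genotypes after adjustment (smallest possible p = 0.00174). Without both NTg replicate 4 and Tg replicate 1, a choice made after their levels were seen, all 45 r stayed positive, from 0.48 to 0.98, and 18 pairs passed.

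**Figure D2:**
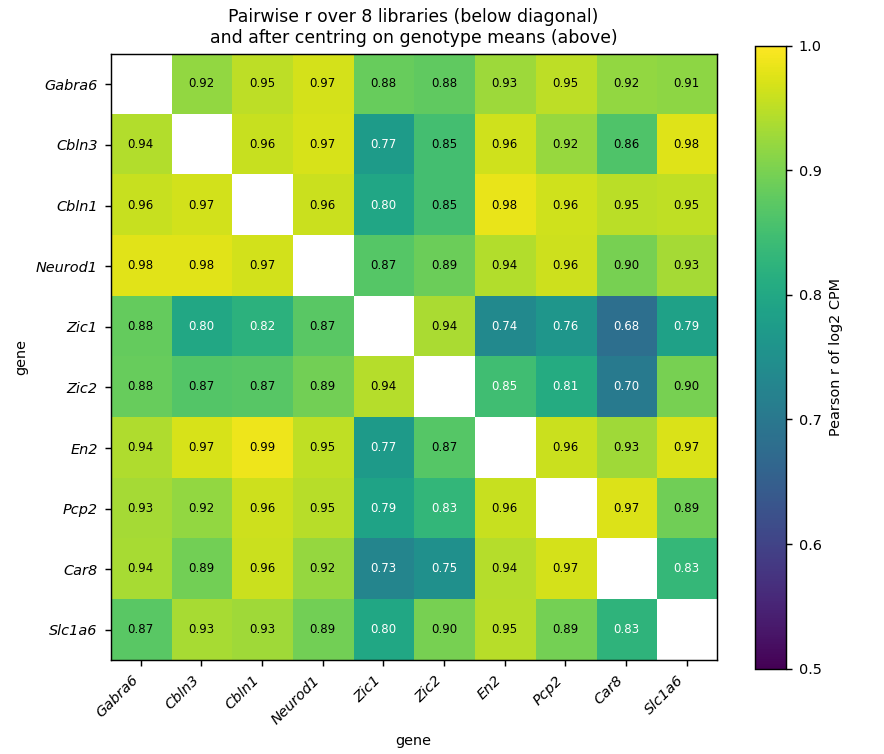
Pearson r of log2 CPM for each pair of members, over the 8 libraries below the diagonal and after centring each gene on its genotype means above it (colour scale 0.5 to 1). Values lie between 0.68 and 0.99, and the rows of Zic1 and Zic2 hold the lowest.

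Set against Gabra6, the other members varied by unequal steps from library to library. The slope of log2 CPM on that of Gabra6 over the 8 libraries was 0.91 for Cbln3, 0.82 for Car8, 0.78 for Pcp2, 0.75 for Neurod1 and 0.74 for En2. It was 0.56 for Cbln1, 0.51 for Slc1a6, 0.45 for Zic1 and 0.44 for Zic2, where a slope of 1 would keep a fixed ratio to Gabra6. The Neurod1 to Gabra6 ratio of CPM was 0.49 ± 0.04 in NTg and 0.44 ± 0.05 in Tg (SD, n = 4), and the Cbln3 to Gabra6 ratio 1.79 ± 0.09 and 1.74 ± 0.32. Gabra6 had the largest fitted log2 fold change of the 10 members (0.45) and divides every ratio. Lower ratios in Tg were therefore favoured by the choice of divisor and are not separate observations. All 9 ratios to Gabra6 had a lower mean in Tg. In 5 of them the difference exceeded the larger SD of the genotypes: Cbln1 (1.13 ± 0.20 in NTg, 0.93 ± 0.10 in Tg), Pcp2 (0.14 ± 0.01, 0.12 ± 0.02), Zic1 (1.45 ± 0.28, 1.11 ± 0.17), Zic2 (0.42 ± 0.09, 0.32 ± 0.05) and Slc1a6 (0.28 ± 0.05, 0.21 ± 0.03). None of the 9 passed an exact two-sided permutation test (lowest p = 0.0571, for Pcp2; lowest adjusted p over the 9 = 0.257), where 4 libraries against 4 can reach 0.0286. The Zic1 to Gabra6 ratio went from 1.64 in NTg replicate 2, where Gabra6 was lowest, to 0.97 in Tg replicate 1.

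**Figure D3:**
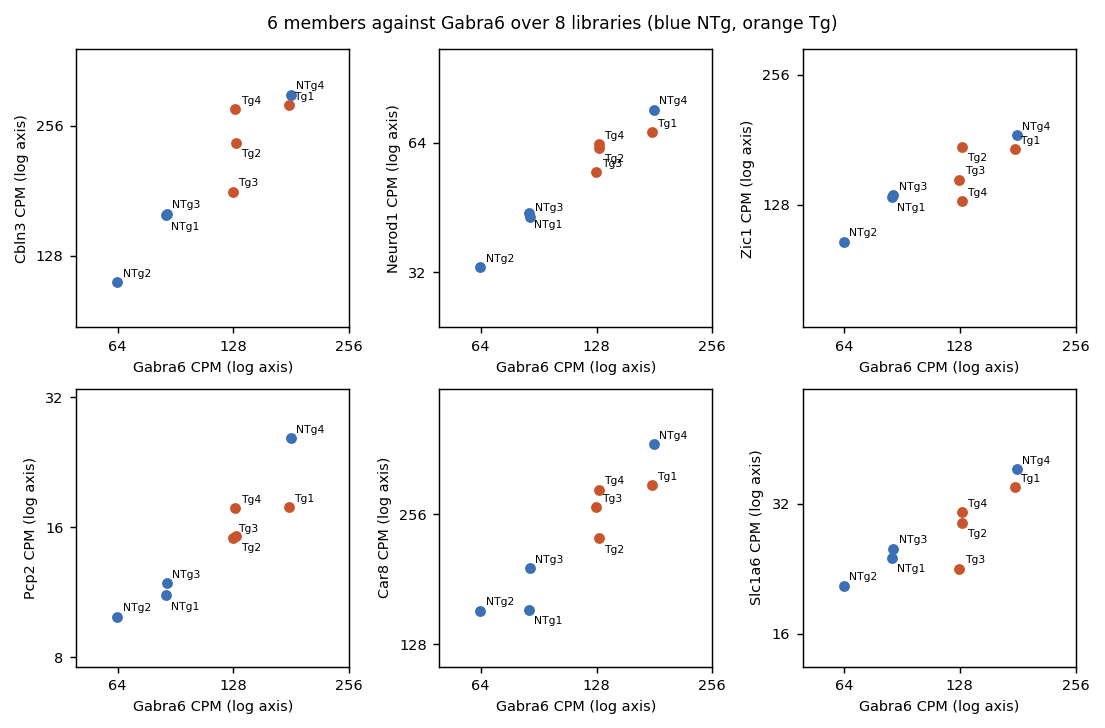
CPM of 6 members (vertical axes, log scale) against Gabra6 (horizontal axis, log scale) in the 8 libraries, NTg in blue and Tg in orange. NTg replicate 2 sits at the lower left and NTg replicate 4 at the upper right of each panel, and Zic1 and Slc1a6 climb less steeply than Cbln3 and Neurod1.

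Between genotypes 0 of 10 members passed the test. The quasi-likelihood test of edgeR called 3 of 21588 genes at an FDR of 0.05, or 0.0139%, and at an unadjusted p under 0.05 it had 0 of the 10 members against 7.36% of all genes. DESeq2 called 0 of 10 members and 1.63% of all genes. All 10 fitted log2 fold changes were above 0, with a median of 0.27, whereas 49.2% of all tested genes were above 0 with a median of -0.0024. Since the members vary together, their 10 signs are not 10 separate observations.

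The size of these differences depended on single NTg libraries. The median log2 fold change, 0.27 with all libraries, was 0.15 without NTg replicate 2, 0.17 without NTg replicate 1 and 0.61 without NTg replicate 4. Every Tg library lay above every NTg library for 0 of 10 members (2.62% of all genes), but above NTg replicates 1 to 3 for 8 of 10, all but Zic1 and Slc1a6 (5.43% of all genes). Without NTg replicate 4 all 10 members had an unadjusted p under 0.05, as did 9.29% of all genes, or 5.68% counting those higher in Tg. None passed edgeR after adjustment over all genes in that setting, where Pcp2 had adjusted p = 0.172 and Gabra6 0.179, and 0.0182% of all genes did.

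Without both NTg replicate 4 and Tg replicate 1, 3 of 10 members rose in Tg by edgeR over all genes, where 1.23% of all genes were called. They were Gabra6 (log2 fold change 0.72, SE 0.11, adjusted p = 0.0206), Pcp2 (0.55, SE 0.10, adjusted p = 0.0436) and Car8 (0.65, SE 0.12, adjusted p = 0.0460). The adjusted p in this setting was 0.0590 for Neurod1 and 0.103 to 0.523 for the other 6. At an unadjusted p under 0.05 there were 8 of 10 members, all higher in Tg, beside 11.7% of all genes and 6.51% counting those higher in Tg. This setting was chosen after the levels of both libraries were seen, and it compares 3 libraries with 3. In it all 5 red blood cell genes fell in Tg by edgeR, with a median log2 fold change of -1.54, and their part in the members' calls was not tested.

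**Figure D4:**
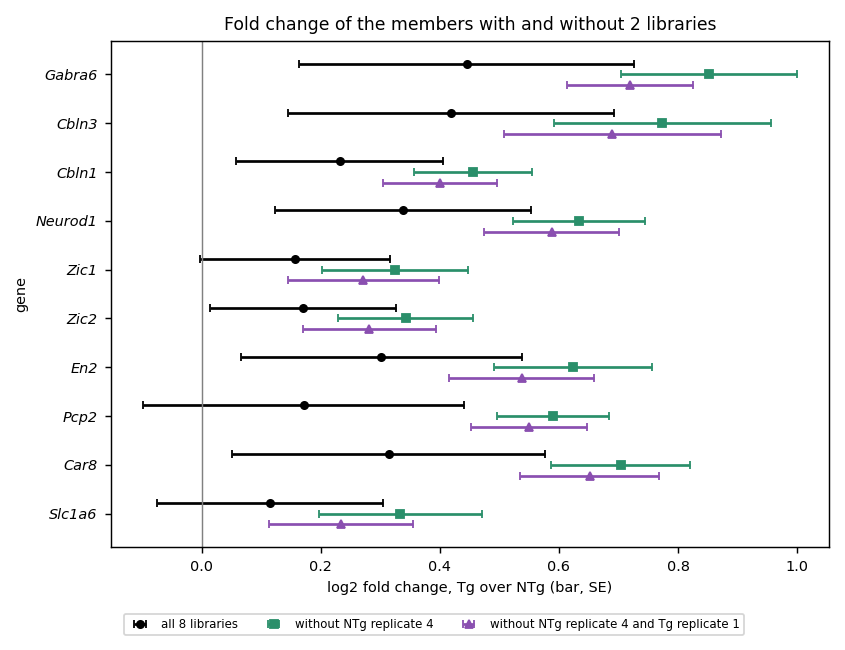
Log2 fold change of each member, Tg over NTg (horizontal axis, bars are the SE of the edgeR fit), with all 8 libraries (black), without NTg replicate 4 (green) and without NTg replicate 4 and Tg replicate 1 (purple). The values with all libraries lie between 0.11 and 0.45, and those without NTg replicate 4 between 0.32 and 0.85.

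Other cerebellar genes gave the same picture in part. Gdf10, a marker of Bergmann glia, the astrocytes of the cerebellar cortex, had r = 0.97 with Gabra6 and went from 16.4 CPM in NTg replicate 2 to 31.7 CPM in NTg replicate 4. Fat2, a cadherin of granule cells, had r = 0.92 and ran from 36 to 89.0 CPM over the same libraries. Of the 16 further Purkinje cell genes 15 had a positive r with Gabra6 (median 0.78), and of the 10 further granule cell genes 8 did (median 0.73). Of all 21587 other tested genes 10993 had a positive r, with a median of 0.01. The list of cerebellar interneurons, unipolar brush cells and Bergmann glia, to which Gdf10 belongs, did not follow as a whole: 4 of its 9 genes had a positive r, with a median of -0.09. Without NTg replicate 4 and Tg replicate 1 the median r was 0.77 for granule, 0.66 for Purkinje and -0.17 for the third list. A positive r with Gabra6 was not particular to cerebellar lists: all 5 red blood cell genes had one (median 0.16). After centring on genotype means their median was 0.69, beside 0.65 for granule and 0.86 for Purkinje cell genes. Without the same 2 libraries the red blood cell median was -0.81. These r describe 8 libraries that share their depth and tissue and carry no p. Fat2 and Gdf10 were chosen after their values were seen.

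The most abundant genes of these lists are also expressed outside the cerebellum. Itpr1, the IP3 receptor that Car8 binds, stood at 761 to 1067 CPM with r = 0.78, Rgs8, a regulator of G-protein signalling, at 220 to 344 CPM with r = 0.88, and Calb1, a calcium buffer, at 188 to 334 CPM with r = 0.92. In the granule cell list Rims3, a presynaptic protein, went against Gabra6 (r = -0.75; 231 to 319 CPM), and Calb2, the calcium buffer calretinin, had r = -0.01. The edgeR test called 0 members of both lists, beside 0.0139% of all genes. The median log2 fold change was 0.17 for granule and 0.10 for Purkinje cell genes. Of these 26 genes 1, Grin2c, had an unadjusted p under 0.05 by edgeR (0.029), beside 7.36% of all genes. DESeq2 also called 0 genes of both lists, and 1.63% of all genes. Without the pair of libraries edgeR called 1 granule cell gene and 0 Purkinje cell genes, beside 1.23% of all genes. The granule cell gene was Pax6, a factor of granule cells and other neurons, and it rose in Tg.

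Relatives of the members did not share their pattern as a rule. Cbln2 and Cbln4, cerebellins of forebrain neurons among others, had r = -0.48 and -0.27 with Gabra6. The other GABA-A receptor subunits tested had a median r of 0.12. Zic5, another zinc finger factor, had r = 0.88. Atoh1, the factor of granule cell precursors in the embryo, was at 0 CPM in 6 libraries and at 0.02 CPM in Tg replicates 2 and 4.

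By the highest Pearson r over the 8 libraries among 14004 other genes with a mean of at least 1 CPM, those with predicted, clone or Riken symbols left out, the genes most like Gabra6 were Mtbp (r = 0.997), Fam107b (0.996), Pkib (0.984), Gdf10 (0.971) and Bcl2l15 (0.970). Those most like Pcp2 were Nrk (0.972), Camk4 (0.966), Ppp1r17 (0.966), Hbp1 (0.966) and Hif1a (0.963). Ppp1r17, a phosphatase inhibitor of Purkinje cells, ran from 21.6 CPM in NTg replicate 2 to 55.2 CPM in NTg replicate 4. Of 21587 genes, 0.459% had r above 0.9 with Gabra6, and 6 of the 9 other members were among them, led by Neurod1 (0.98, the 4th highest). With so few libraries, high r also arises among unrelated genes.

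Markers of other regions were set beside the members. Genes of the lists for forebrain regions were present in all 8 libraries. Slc17a7, a vesicular glutamate transporter of cortex and hippocampus that is not restricted to the forebrain, stood at 473 to 760 CPM. Ppp1r1b, a striatal phosphatase inhibitor, stood at 100 to 158 CPM. Neither followed Gabra6 (r = -0.29 and -0.22). All 8 striatal and all 5 olfactory bulb genes had a negative r with Gabra6, and 1 of 8 cortical and hippocampal, 1 of 9 thalamic and habenular and 1 of 6 dentate gyrus genes a positive one. Without NTg replicate 4 and Tg replicate 1 the sign turned for the cortical and hippocampal genes, of which 8 of 8 then had a positive r (median 0.41), and stayed negative for all striatal and olfactory bulb genes. Olfactory bulb genes summed to 15.2 to 121 CPM and were highest in Tg replicate 3 and NTg replicate 2.

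Choroid plexus genes, which mark the epithelium that makes cerebrospinal fluid, had lower values in Tg in the fit, and the call depended on the tool. All 8 had a fitted fold change below 0 in Tg with a median log2 fold change of -0.72. Their r with Gabra6 had a median of -0.32, and of 0.22 after each gene was centred on its genotype means. The edgeR test called 0 of them (0.0139% of all genes), 6 had an unadjusted p under 0.05 (7.36%), and DESeq2 called 4 (1.63%): Aqp1, Folr1, Kl and Ttr. Every Tg library lay below every NTg library for 4 of the 8 (1.58% of all genes). Without NTg replicate 4 and Tg replicate 1, edgeR called 0 of 8 and the median log2 fold change was -0.79. Ttr, the transthyretin of this epithelium, was at 813, 780, 549 and 848 CPM in NTg replicates 1 to 4 and at 439, 279, 289 and 528 CPM in Tg. The part of choroid plexus content in the genotype values of the cerebellar genes was not tested.

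Genes of tissues in which some members are also expressed were followed too. Meningeal genes summed to 54.5 to 78.9 CPM, lowest in NTg replicate 1 and highest in NTg replicate 2, with a median r of -0.20 with Gabra6. Dentate gyrus genes summed to 96.6 to 121 CPM, with a median r of -0.22. The midbrain and hindbrain list of 14 genes summed to 23.8 to 88.4 CPM in NTg and 47.7 to 104 CPM in Tg, with a median r of 0.20. Of its 14 genes 8 had a positive r with Gabra6, led by Tph2 (0.73), Slc6a4 (0.67), Gata3 (0.57), En1 (0.52) and Pax5 (0.47). Without NTg replicate 4 and Tg replicate 1, 3 of the 14 had a positive r, with a median of -0.14. In that list Hoxa5 and Hoxb5, hindbrain and spinal cord genes, were lowest in Tg replicate 4 (0.17 and 0.41 CPM) and highest in NTg replicate 2 (6.82 and 6.39 CPM), the library lowest in all cerebellar members. The genes named from that list were chosen after their values were seen.

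**Figure D5:**
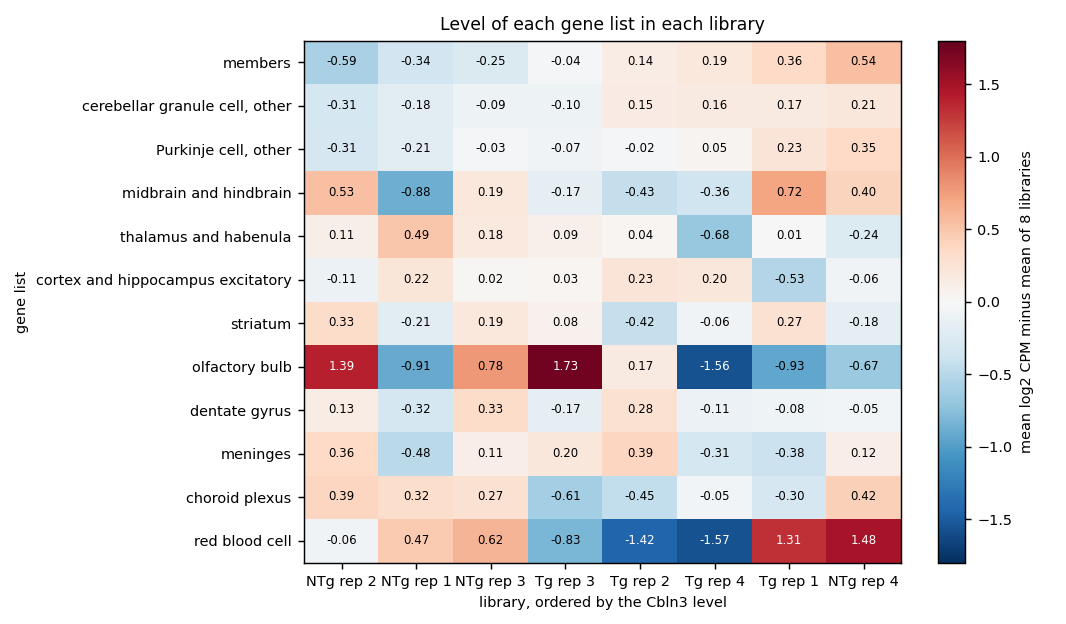
Mean log2 CPM of each gene list (rows) in each library (columns, ordered by the Cbln3 level), relative to the mean of the 8 libraries. The members climb from -0.59 in NTg replicate 2 to 0.54 in NTg replicate 4, the other granule cell genes from -0.31 to 0.21 and the other Purkinje cell genes from -0.31 to 0.35, while the lists of forebrain regions follow other orders.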

How the data were processed

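Polyadenylated RNA of 8 libraries was sequenced in pools as paired-end reads on a NextSeq 500, per the labels' protocols. The authors deposited raw read counts per Ensembl gene, without normalization. The submitters' processing notes name the aligner STAR, the build GRCm39 and DESeq2, with no role or order. The counter and annotation release were not given in the sources used here. Symbols were found for 52073 Ensembl identifiers.

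Genes were kept by filterByExpr (minimum count 10, minimum total 15). After TMM scaling, genotypes were compared by edgeR 4.0.16 (quasi-likelihood F test, Benjamini-Hochberg adjustment over all tested genes, threshold 0.05) in R 4.3.3. The SE is the log2 fold change divided by the square root of F. CPM come from edgeR, and log2 CPM use a prior count of 2. Alternatives were DESeq2 1.42.0, limma-voom 3.58.1, other scaling and filters, robust dispersion, a replicate block and each library left out. Tested on simulated counts for this comparison, with 200 genes altered before the filter and 21329 tested, edgeR found 47.8% of those set 1.5-fold apart and 71.2% of those set 2-fold apart, and made 6 false calls. Smaller folds, such as those fitted for the members, were not simulated. No pair of libraries within a genotype agreed within sampling noise (chi-square per degree of freedom 10.9 or more).

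Every member is named. Of the other lists the rule names up to 4 of the most abundant genes, and beyond the lists the 5 genes most like Gabra6 and the 5 most like Pcp2. Members and lists were chosen with earlier results of these data known. Some genes of these lists are not reported here.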

Additional observations from a re-analysis of the deposited data

Results flagged for a closer look

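Of 20 groups of 4 libraries (10 members in 2 genotypes), 3 held a library whose gap to its neighbour was large for the group's range, where chance gives about 1 in 20. Gabra6 in Tg replicate 1, at 178 CPM, lay apart from the other Tg libraries at 128 to 130 CPM. Pcp2 in NTg replicate 4, at 25.7 CPM, lay apart from the other NTg libraries at 9.92 to 11.9 CPM. En2 in NTg replicate 4, at 32.3 CPM, lay apart from the others at 14.9 to 17.8 CPM. The members vary together, so these are not 3 separate events.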

How the results depend on the processing

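All 170 values of single members under 17 alternatives kept a log2 fold change above 0, and the 3 that passed the threshold are those without NTg replicate 4 and Tg replicate 1. The number of members called was 0 under the other 16 alternatives and 3 there, and the range with each library left out was 0 to 0. The fit with Gabra6 as a covariate is not among these, since it holds a member. The median log2 fold change of the members, 0.27 with all libraries, was 0.15 to 0.61 with each library left out (0.15 without NTg replicate 2, 0.17 without NTg replicate 1, 0.61 without NTg replicate 4) and 0.54 without both libraries. The number of genes called by edgeR, 3 in the fit as planned, was 352 with DESeq2, 127 with no filter on low counts, 1 with the replicate block, 3 to 314 with each library left out (314 in the absence of Tg replicate 1, 16 in that of NTg replicate 1, 9 in that of Tg replicate 2, at most 4 otherwise) and 265 without both libraries. The cause of these shifts was not tested. Pairs that passed numbered 45 with all libraries, 31 to 45 with each library left out (fewest without NTg replicate 2) and 18 without both. Without both, 6 libraries give an exact test less reach, and the median r was 0.86 in place of 0.92. The part of each in the lower number was not tested. The labels do not say what a replicate number shares. Same-numbered libraries correlated at -0.03 to 0.16 in their deviations from the genotype means, which cannot settle whether they share more than a number. The replicate block called 0 members. The members had at least 624 counts in every library, and the effect of depth on their calls was not tested.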

Other observations

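With the Gabra6 level of each library as a covariate, a setting chosen after seeing the data, edgeR called 4 genes in place of 3, and all 3 original calls remained: App (adjusted p = 0.00677), Prmt3 (0.0033) and Cxcl10 (0.0121). The members themselves cannot be read in that setting, since the covariate is one of them. Olfactory bulb genes varied over a wider range than the cerebellar ones: Cdhr1, a protocadherin of mitral and tufted cells, ran from 7.94 CPM in Tg replicate 4 to 66.3 CPM in Tg replicate 3, with 51.5 CPM in NTg replicate 2. Slc6a3, the dopamine transporter, ran from 3.04 CPM in NTg replicate 1 to 32.0 CPM in NTg replicate 3. These genes were chosen after their values were seen.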
